A study of Mus musculus with 10 samples.

Results

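The genes described here encode lipases that act on stored or circulating lipids, triglyceride among them, and proteins that switch such lipases on or off. They were listed by name and not by a threshold on measured values, although earlier results of these data were known when the list was drawn up: Pnpla2, Abhd5, G0s2, Lipe, Mgll, Lipc, Lipa and Lipg. Of these 8 genes, 7 had an array feature annotated with their symbol alone and were analysed, out of 19938 genes in all, and Lipc is not analysed here. Each of the 7 had 1 such feature, so no choice between features was needed.

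Liver RNA was measured on 1 Affymetrix Gene ST array per mouse in male C57BL/6J mice. At an age of 8 weeks, 5 mice had received an adenovirus encoding Phf2, a histone H3K9me2 demethylase, through the tail vein and 5 control mice an adenovirus encoding GFP, and all were taken in the fed state 3 weeks later. All 10 mice thus carry an adenovirus, and the sources used here do not give the promoter that drives Phf2 in it. Phf2 itself read 6.32 to 6.54 in GFP mice and 6.27 to 6.58 in Phf2 mice (log2 fold change -0.05, SE 0.08, adjusted p = 0.751 by limma). The methods state that Phf2 was amplified from cDNA of a human cell line for plasmids, and do not say whether the adenovirus carries the same sequence. Which part of the transcript the Phf2 feature reads, and whether it reads the Phf2 of the virus, is not known here. The Phf2 reading therefore does not check the labels. Values are log2 RMA signals, in which 1 unit is a doubling, and levels are compared only between arrays for the same gene. RNA was taken from whole liver, so that fewer cells of a type and less RNA per cell cannot be told apart.

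Triglyceride stored in the lipid droplets of hepatocytes is broken down stepwise. ATGL, the product of Pnpla2, removes the first fatty acid, hormone-sensitive lipase (Lipe) acts mainly on the diacylglycerol that remains, and monoacylglycerol lipase (Mgll) frees the last fatty acid. Abhd5, also called CGI-58, binds ATGL and activates it, whereas G0s2 binds ATGL and blocks it. Lysosomal acid lipase (Lipa) hydrolyses triglyceride and cholesteryl ester that reach the lysosome, and endothelial lipase (Lipg) acts outside the cell, mainly on the phospholipids of HDL.

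Expression of Pnpla2 and Lipg was higher in the livers of Phf2 mice than in those of GFP mice, and the other 5 genes did not pass the test. The changes of these 2 genes were of moderate size, 1.42-fold for Pnpla2 and 1.52-fold for Lipg. Both rises passed an adjusted p of 0.05 (limma, adjusted over all genes), a threshold that 5.43% of all genes passed upwards and 9.67% passed in either direction. In both genes all 5 Phf2 arrays lay above all 5 GFP arrays, as was the case for 4.71% of all genes, and the groups stood apart in either direction for 9.08%. The median log2 fold change of the 7 genes was 0.24, against -0.01 over all genes. All 7 values were above 0, but those of G0s2 and Lipe were close to it. Each of them fell below 0 in 5 of the 20 alternative analyses, median centring among those for Lipe. Several alternatives, such as the methods' t-test and the replicate block, leave the fold change of these genes as it is. They could therefore not change its sign. None of the lipase genes was lower in Phf2 mice by this test, which 4.24% of all genes were.

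**Figure D1:**
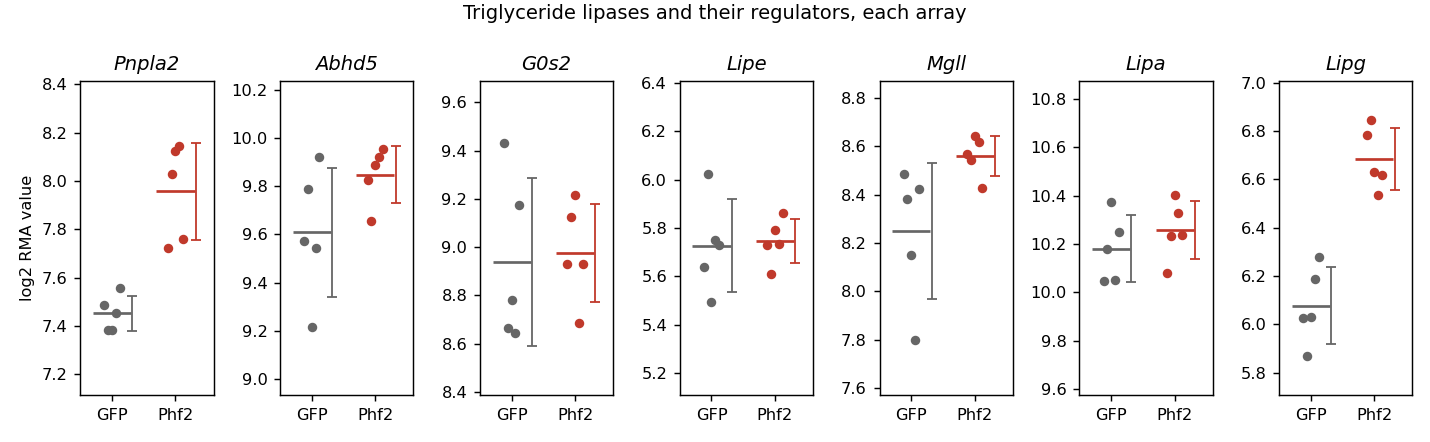
Level of each of the 7 genes (log2 RMA value, vertical axis, each panel spanning the same range) in the 5 GFP arrays (grey) and the 5 Phf2 arrays (red), with long lines at the means and bars showing the SD. The groups stand apart for Pnpla2 (7.38 to 7.55 against 7.72 to 8.15) and Lipg (5.87 to 6.28 against 6.54 to 6.85) and overlap for the other 5 genes.

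To show the sequence in front of these genes, windows from 250 bases before to 50 bases after annotated starts (RefSeq, GRCm38.p6) were searched on both strands. The motifs were the E-box CACGTG, the antioxidant response element core TGACNNNGC, the PPAR-type direct repeat 1 and the FoxO site TGTTTAC. The search covered 10 windows for 7 of the listed genes, Lipc among them. No window of Lipg was looked at, so nothing is said here of its promoter. Matches are shown in capitals in the stretches printed here, which are the 250 bases before the start of Pnpla2, which rose, those before the first start of Mgll, and 30 bases around the match of Lipe.
Pnpla2, chr7:141454938-141455187, plus strand: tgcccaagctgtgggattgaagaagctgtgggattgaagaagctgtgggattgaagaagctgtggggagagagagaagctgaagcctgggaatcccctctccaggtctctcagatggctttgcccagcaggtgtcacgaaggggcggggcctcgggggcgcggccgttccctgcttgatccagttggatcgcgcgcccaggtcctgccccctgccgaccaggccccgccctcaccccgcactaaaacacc
Mgll, chr6:88724162-88724411, plus strand: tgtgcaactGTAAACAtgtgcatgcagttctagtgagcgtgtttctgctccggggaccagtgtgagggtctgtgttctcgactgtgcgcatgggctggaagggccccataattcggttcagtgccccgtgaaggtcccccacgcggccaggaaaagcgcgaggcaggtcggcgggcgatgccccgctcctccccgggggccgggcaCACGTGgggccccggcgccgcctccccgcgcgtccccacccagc
Lipe, chr7:25396125-25396154, minus strand: aacagggacgacCACGTGagggggcggagg
The E-box matched in 2 of the 10 windows, at position -44 of Mgll and at position -155 of Lipe, both counted back from the annotated start. It is found in 7.15% of the 32851 windows available. The FoxO letters also matched in 2 windows, on the minus strand at position -241 of Mgll and at position -119 of the second window of Lipe, against 3.65% of all windows. None of the 10 windows held the antioxidant core, found in 12.4% of all windows, or the direct repeat, found in 0.0396%. The Pnpla2 window held none of the 4 motifs, while Mgll and Lipe, which held an E-box, did not pass the test on the arrays. A match of letters is no evidence of binding, and its absence in so short a window leaves the rest of the locus unread.

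Pnpla2 (feature 10558921) read 7.48, 7.38, 7.38, 7.45 and 7.55 in GFP replicates 1 to 5. It read 7.72, 8.03, 8.12, 8.15 and 7.76 in Phf2 replicates 1 to 5. The GFP livers were thus tightly grouped, whereas the Phf2 livers spread out, replicates 2, 3 and 4 lying above 8 and replicates 1 and 5 close to the GFP range. The GFP mean was 7.45 ± 0.07 (SD, n = 5) and the Phf2 mean 7.96 ± 0.20 (SD, n = 5), which gives a log2 fold change of 0.51 (SE 0.09, adjusted p = 0.00386 by limma), and the two-sided exact permutation test gave p = 0.00794, the smallest value it can reach with 5 arrays against 5.

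Pancreatic enzyme transcripts varied widely between these livers. The mean of 12 acinar markers was 12.03, 7.95, 6.67, 5.88 and 7.43 in GFP replicates 1 to 5 and 5.71, 10.32, 9.68, 8.34 and 5.86 in Phf2 replicates 1 to 5. The Phf2 arrays with the higher pancreatic values were thus the same 3 that had the higher Pnpla2 values, while GFP replicate 1, with the highest pancreatic value of all, had a Pnpla2 level within the GFP range. With the pancreatic mean of each array as a covariate, the log2 fold change of Pnpla2 was also 0.51 (SE 0.08, adjusted p = 0.00232 by limma). The groups overlapped in this marker mean, and their averages were nearly equal, 7.99 in GFP and 7.98 in Phf2 mice. Such a covariate can hardly move a fold change between the groups, so the unchanged value decides nothing. The part of pancreatic RNA in the rise was not tested.

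Abhd5, which encodes the coactivator of ATGL (feature 10590452), read 9.57, 9.79, 9.22, 9.54 and 9.92 in GFP replicates 1 to 5. In Phf2 replicates 1 to 5 it read 9.83, 9.65, 9.89, 9.92 and 9.95. The Phf2 livers lay in the upper part of the GFP range, and 2 of the 5 exceeded the highest GFP liver. The log2 fold change of 0.24 (SE 0.12, adjusted p = 0.254 by limma) did not pass the test, and its 95% interval ran from -0.01 to 0.49.

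G0s2, which encodes the inhibitor (feature 10361246), read 9.43, 8.67, 8.78, 8.65 and 9.17 in GFP replicates 1 to 5. It read 8.93, 9.12, 9.21, 8.69 and 8.93 in Phf2 replicates 1 to 5, entirely within the GFP range. The log2 fold change was 0.04 (SE 0.15, adjusted p = 0.928 by limma). Its 95% interval, -0.30 to 0.37, was the widest of the 7 genes and leaves room for a change of up to 1.29-fold upwards.

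To ask whether the enzyme and its regulators moved by unequal amounts, their log2 values were subtracted within each array, which removes any scaling of the whole array. Pnpla2 minus G0s2 averaged -1.49 ± 0.30 (SD, n = 5) over the GFP arrays and -1.02 ± 0.27 (SD, n = 5) over the Phf2 arrays, a shift of 0.47 (SE 0.18). This shift had p = 0.0159 in a two-sided exact permutation test and p = 0.0476 after adjustment over the 3 pairs compared. The values were -1.95, -1.28, -1.40, -1.19 and -1.62 in GFP replicates 1 to 5 and -1.21, -1.09, -1.09, -0.54 and -1.17 in Phf2 replicates 1 to 5. GFP replicate 1 was lowest, Phf2 replicate 4 stood above all others, and the groups overlapped at GFP replicate 4, which lay just above Phf2 replicate 1. The adjusted p exceeded 0.05 without GFP replicate 1 (0.0952) and without Phf2 replicate 2 (0.0952), 3 (0.0952), 4 (0.143) or 5 (0.0714), while the shift kept its direction, at 0.35 to 0.54. Abhd5 minus G0s2 shifted by 0.20 (SE 0.21, exact permutation p = 0.373, adjusted p = 0.373), and Pnpla2 minus Abhd5 by 0.27 (SE 0.15, exact permutation p = 0.143, adjusted p = 0.214), neither of which passed.

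**Figure D2:**
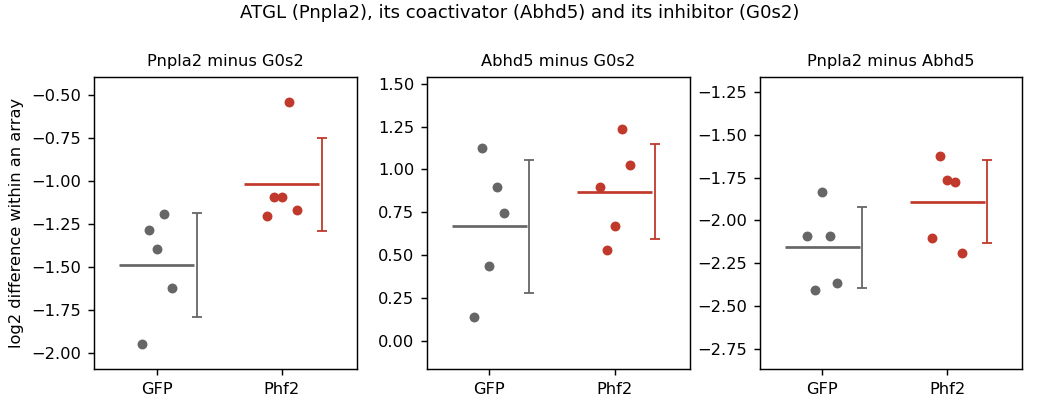
Difference between the log2 values of 2 genes within an array (vertical axis) for the 3 pairs of Pnpla2, Abhd5 and G0s2, in GFP (grey) and Phf2 (red) arrays, with long lines at the means and bars showing the SD. Pnpla2 minus G0s2 rose from -1.49 to -1.02 on average, with Phf2 replicate 4 alone at the top, and the groups of all 3 pairs overlap.

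Lipe, the gene of hormone-sensitive lipase (feature 10561031), read 5.64, 6.02, 5.49, 5.75 and 5.73 in GFP replicates 1 to 5. In Phf2 replicates 1 to 5 it read 5.73, 5.61, 5.79, 5.74 and 5.86, all inside the GFP range. Its log2 fold change was 0.02 (SE 0.09, adjusted p = 0.941 by limma), with a 95% interval of -0.18 to 0.22, equal to 0.883-fold to 1.16-fold.

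Mgll, which completes the hydrolysis (feature 10539894), read 8.49, 8.38, 8.15, 7.80 and 8.43 in GFP replicates 1 to 5. It read 8.57, 8.54, 8.64, 8.62 and 8.43 in Phf2 replicates 1 to 5. In 4 of the 5 Phf2 livers the level was above that of every GFP liver, and replicate 5 lay within the GFP range. The log2 fold change of 0.31 (SE 0.12, 95% interval 0.06 to 0.57) had an unadjusted p of 0.0198 by limma, and 22.2% of all genes had an unadjusted p under 0.05. It did not pass after adjustment (adjusted p = 0.127), and the two-sided exact permutation test gave p = 0.0159. The GFP livers were more spread out (SD 0.28) than the Phf2 livers (SD 0.08), and without GFP replicate 4, the lowest, the log2 fold change was 0.20 (adjusted p = 0.178 by limma). With the pancreatic markers as a covariate the adjusted p was 0.0759.

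**Figure D3:**
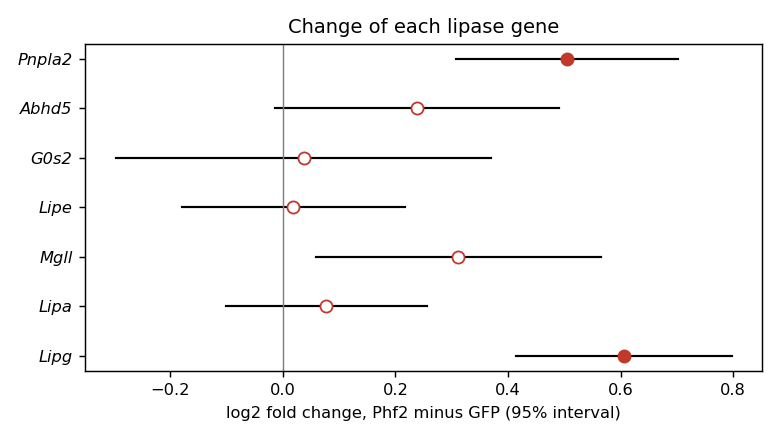
Log2 fold change of each gene (Phf2 minus GFP, horizontal axis) with its 95% interval by limma. The filled points, Pnpla2 at 0.51 and Lipg at 0.61, passed the adjusted threshold, unlike the open ones. The intervals of Abhd5, G0s2, Lipe and Lipa include 0.

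Lipa, which encodes the lipase of the lysosome (feature 10467139), read 10.05, 10.18, 10.37, 10.05 and 10.25 in GFP replicates 1 to 5. It read 10.08, 10.24, 10.40, 10.33 and 10.24 in Phf2 replicates 1 to 5. The groups overlapped almost fully, with a log2 fold change of 0.08 (SE 0.08, adjusted p = 0.657 by limma, 95% interval -0.10 to 0.26). Other lysosomal genes did move. Of 24 lysosome genes analysed from a list of 26, 7 rose, none fell and 17 stayed under the threshold, and their median was 0.07 on the log2 scale. By the same test 5.43% of all genes rose and 4.24% fell. The largest rises were those of Cd63, a tetraspanin of late endosomes, by 2.09 (SE 0.18, adjusted p = 2.54e-05 by limma), and of Gpnmb, a glycoprotein of lipid-laden macrophages, by 1.91 (SE 0.22, adjusted p = 0.000167), from a GFP mean of 4.42 that lay below the median of all features, 5.12. Next came the protease Ctss, with a log2 fold change of 0.52 (SE 0.15, adjusted p = 0.0479), a call lost without any of GFP replicates 1 (0.0940), 2 (0.112) and 4 (0.0890) or Phf2 replicates 1 (0.0616), 2 (0.106), 3 (0.102) and 4 (0.123). The count of the list was 4 rather than 7 without GFP replicate 4 and without Phf2 replicate 4. Gpnmb and Ctss are typical of macrophages. The mean of 12 macrophage and Kupffer cell markers lay at 7.25 to 7.87 in GFP mice and 7.14 to 7.44 in Phf2 mice. It overlapped between groups while single markers moved both ways (2 higher, 4 lower). Mpeg1 (log2 fold change 0.93) and Lyz2 (0.64) were higher, and Cd163 (-1.89), Timd4 (-1.59), Clec4f (-0.54) and Marco (-0.37) were lower. That mean mixes opposite changes, and its overlap does not measure the share of macrophages. The part of macrophages in the lysosomal result was not tested.

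Lipg, the gene of endothelial lipase (feature 10459772), read 6.02, 5.87, 6.03, 6.19 and 6.28 in GFP replicates 1 to 5. It read 6.79, 6.85, 6.63, 6.54 and 6.62 in Phf2 replicates 1 to 5. Every Phf2 liver was above every GFP liver, and the order of the Phf2 livers differed from that for Pnpla2, replicates 1 and 2 being highest. The GFP mean was 6.08 ± 0.16 (SD, n = 5) and the Phf2 mean 6.68 ± 0.13 (SD, n = 5), which gives a log2 fold change of 0.61 (SE 0.09, adjusted p = 0.00101 by limma, exact permutation p = 0.00794). Lipg was also the 1 gene of the 7 past 1.5-fold with an unadjusted p under 0.05, a reading of the study's thresholds, whose adjustment the sources used here do not state, which 3.54% of all genes passed in either direction and 2.38% upwards. It fell just short of 1.5-fold without GFP replicate 2 (log2 fold change 0.55), without Phf2 replicate 1 (0.58) or 2 (0.56) and after a further quantile normalization (0.57), with an adjusted p under 0.05 in each of them. The mean of 10 endothelial markers was 6.95 to 7.05 in GFP mice and 6.94 to 7.14 in Phf2 mice, and 1 of these markers, Lyve1, was higher (log2 fold change 0.51, adjusted p = 0.0211 by limma).

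A wider list held lipases of the circulation, their cofactors, and receptors, processing enzymes and regulators around them. It was drawn up, like the other related lists, with earlier results of these data known. Of 22 genes analysed from a list of 25, 2 rose, 8 fell and 12 stayed under the threshold, with a median of -0.07. Over all genes 5.43% rose and 4.24% fell. Lpl, which encodes lipoprotein lipase, a close relative of Lipg, read 7.19, 7.12, 7.46, 7.47 and 7.87 in GFP replicates 1 to 5 and 8.20, 8.52, 8.71, 8.51 and 7.68 in Phf2 replicates 1 to 5, so that Phf2 replicate 5 fell within the GFP range. Its log2 fold change was 0.91 (SE 0.19, adjusted p = 0.00873 by limma, and 0.0533 by the methods' t-test). Furin, a protease that can cleave these lipases, rose by 0.56 (SE 0.08, adjusted p = 0.000655). The largest falls were those of Pla1a, a phospholipase of the same family, with a log2 fold change of -0.76 (SE 0.09, adjusted p = 0.000215), Apoa5, an apolipoprotein that promotes lipolysis in plasma, with -0.58 (SE 0.11, adjusted p = 0.00504), and Scarb1, the HDL receptor, with -0.45 (SE 0.08, adjusted p = 0.00330).

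Proteins that control lipolysis at the lipid droplet were also examined. Of 17 such genes, 8 rose, none fell and 9 stayed under the threshold, and their median was 0.30 on the log2 scale. The shares over all genes were 5.43% higher and 4.24% lower. The largest was Pnpla3, a relative of ATGL that competes for its coactivator, which read 5.36 to 5.94 in GFP mice and 7.51 to 7.94 in Phf2 mice, for a rise of 1.95 on the log2 scale (SE 0.12, adjusted p = 1.96e-06 by limma). Cidea and Cidec, which enlarge droplets, rose by 1.86 and 1.67 (adjusted p = 5.97e-06 and 2.94e-06), Cidea from a GFP mean of 4.28 that lay below the median of all features, 5.12. Hilpda, a second inhibitor of ATGL that is named here after its value was seen, read 5.89, 6.05, 5.95, 5.87 and 6.01 in GFP replicates 1 to 5. In Phf2 replicates 1 to 5 it read 6.40, 6.79, 7.17, 6.78 and 6.39, which puts the same 3 livers above the other Phf2 livers as for Pnpla2. Its log2 fold change was 0.75 (SE 0.13, adjusted p = 0.00318), beside 0.04 for the inhibitor G0s2.

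Among other intracellular lipid hydrolases, 4 of 26 genes analysed (of 27 listed) rose, 4 fell and 18 stayed under the threshold, with a median of -0.05. Among all genes 5.43% rose and 4.24% fell. Lipn, a member of the acid lipase family, rose from a mean of 3.99 ± 0.22 (SD, n = 5) to one of 5.91 ± 0.90 (SD, n = 5), with a log2 fold change of 1.92 (SE 0.34, adjusted p = 0.00340 by limma). Its GFP level, too, lay below the median of all features. Ddhd2, a triglyceride and phospholipid hydrolase best known from brain, rose by 1.01 (SE 0.10, adjusted p = 7.24e-05). Tgm2, which rose by 0.93 (adjusted p = 0.000702), encodes a transglutaminase and is not a lipid hydrolase. The remaining rise was that of Pnpla5, by 0.76 (SE 0.11, adjusted p = 0.000822 by limma), named here after its value was seen. Pnpla5 was dim, with means of 4.04 in GFP and 4.80 in Phf2 mice, both below the median of all features. The lower genes were carboxylesterases, with log2 fold changes of -1.96 for Ces3b (SE 0.27, adjusted p = 0.000618), -1.14 for Ces2a (SE 0.11, adjusted p = 6.67e-05) and -0.79 for Ces3a (SE 0.14, adjusted p = 0.00326), while Ces1g was lower as well, at -0.49 (adjusted p = 0.00443), and is named here after its value was seen.

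**Figure D4:**
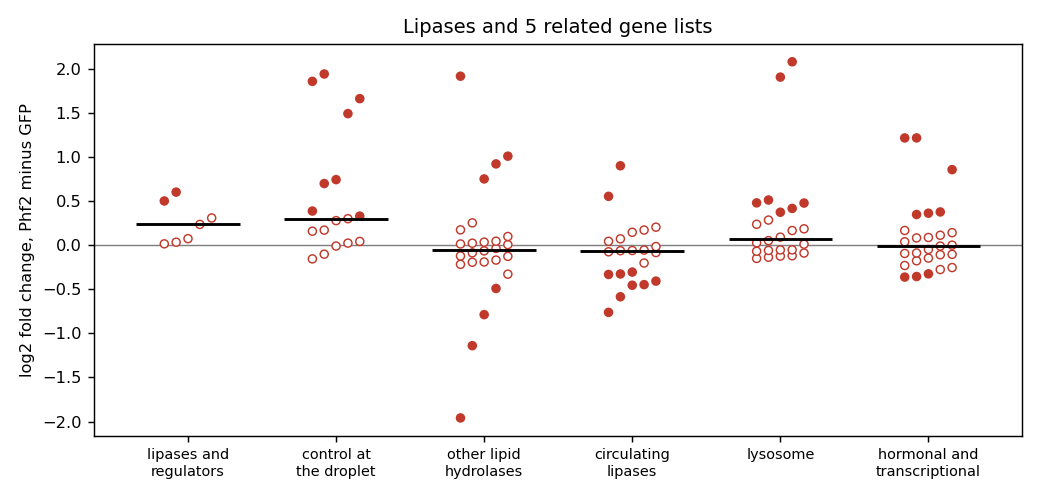
Each point is the log2 fold change (vertical axis, Phf2 minus GFP) of a gene among the lipases and their regulators and in 5 related lists. Genes past an adjusted p of 0.05 are filled, the others are open, and black bars mark the medians, 0.24 for the lipases and their regulators and 0.30 for the genes that control lipolysis at the droplet.

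Of 27 genes of hormonal and transcriptional control analysed (of 32 listed), 6 rose, 3 fell and 18 stayed under the threshold, with a median of -0.01. As a share of all genes, 5.43% rose and 4.24% fell. Transcription factors led the rises. The early-response gene Egr1 and Mlxipl, which encodes ChREBP, both rose by 1.22 (adjusted p = 0.00383 and 6.10e-06 by limma), and Pparg rose by 0.86 (adjusted p = 0.000208). Genes of glucagon and cyclic AMP signalling moved both ways. The receptor gene Gcgr fell by 0.35 (SE 0.07, adjusted p = 0.00873) and the adenylate cyclase gene Adcy9 by 0.36 (SE 0.08, adjusted p = 0.0129). The phosphodiesterase gene Pde4d rose by 0.38 (adjusted p = 0.00966) and Prkar2b, a regulatory subunit of protein kinase A, by 0.35 (adjusted p = 0.0265). Prkar2b was dim, with means of 4.52 in GFP and 4.87 in Phf2 mice, below the median of all features, 5.12. The insulin receptor gene Insr rose by 0.37 (SE 0.07, adjusted p = 0.00774 by limma). Pde4d, Prkar2b and Insr are named here after their values were seen. Cebpa was lower by this test, at -0.32 (SE 0.09, adjusted p = 0.0497), a call lost without any of GFP replicates 1 (0.0984), 2 (0.0698), 4 (0.0813) and 5 (0.104) or Phf2 replicates 1 (0.0538), 2 (0.120), 3 (0.0822) and 4 (0.116). Foxo1, which the naming rule did not select, did not pass, at -0.09 (SE 0.10, adjusted p = 0.656). The part of any of these factors in the rise of Pnpla2 was not tested.

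The genes with the most similar profile over the 10 arrays, by Pearson's r and with no test, differed from lipase to lipase. For Pnpla2 these were Anxa2, an annexin (r = 0.992), and Egr2, an early-response transcription factor (r = 0.987). After the mean of each group was subtracted, their r was 0.962 and 0.949. All such genes were picked for a high r on these same arrays, which raises the r within groups as well. Anxa2 rose by 1.73 (SE 0.26, adjusted p = 0.00124 by limma) and Egr2 by 1.25 (SE 0.21, adjusted p = 0.00294). For Lipg they were Spc25, a kinetochore protein (r = 0.964), and Bex4 (r = 0.963), which rose by 0.96 (adjusted p = 0.000359) and 0.64 (adjusted p = 9.07e-05), and the r within groups was lower, 0.759 and 0.740. Bex4 was dim in both groups, with means of 3.39 and 4.03. For the genes that did not pass the test, the profiles nearest to theirs were those of Wnk4 (0.957) and Sugp1 (0.936) for Abhd5, Tubb4a (0.894) and Orc1 (0.880) for G0s2, and Zswim2 (0.950) and Zdhhc25 (0.948) for Lipe. They were Megf9 (0.958) and Arl2bp (0.944) for Mgll and Snu13 (0.960) and Csf1r (0.951) for Lipa, Csf1r being a receptor of macrophages.

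Once group means were subtracted, the lipase genes were also compared with each other. Over the 10 arrays the highest within-group r was that of Abhd5 with Lipe (0.741), followed by G0s2 with Mgll (0.586). That of Pnpla2 was 0.457 with Lipa, 0.281 with Mgll, 0.250 with G0s2, 0.140 with Abhd5, -0.165 with Lipe and 0.0071 with Lipg, the other gene that rose.

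Markers of other cell types were examined beside these genes, with 5.43% of all genes higher and 4.24% lower by the same test. The mean of 8 T and NK cell markers lay at 4.58 to 4.93 in GFP mice and at 5.08 to 5.50 in Phf2 mice with no overlap. Of the 8 markers 4 were higher, namely Cd3e, Cd3g, Cd8a and Nkg7. Cd4 (log2 fold change 0.07), Gzmb (0.10), Klrb1c (-0.08) and Ncr1 (-0.08) did not pass. Klrb1c and Ncr1, typical of NK cells, were dim, with GFP means of 3.16 and 3.64. The T and NK mean thus follows some of its genes and does not measure the share of either cell type. The mean of 7 hepatocyte markers lay at 11.91 to 12.02 in GFP mice and at 11.53 to 11.90 in Phf2 mice. It also had no overlap, and 3 of the 7 were lower. These were Tat (log2 fold change -0.83), Cps1 (-0.57) and Apoa1 (-0.21). Alb (-0.01), Ttr (-0.06), Hnf4a (-0.09) and Apoh (-0.15) did not pass. The hepatocyte mean thus follows a few genes most and does not measure the share of hepatocytes. For fat cells, which use Lipe, Mgll, Pnpla2 and G0s2 heavily, the defining marker Adipoq read 4.28 to 5.12 in GFP mice and 3.94 to 5.35 in Phf2 mice (adjusted p = 0.923 by limma). Of 8 adipocyte markers, 2 were higher (Cidea and Lpl) and 1 was lower (Pck1), and the mean of the list overlapped between groups, at 6.57 to 6.80 and 6.67 to 7.05. That mean mixes opposite changes, a log2 fold change of -1.24 for Pck1 beside 1.86 for Cidea and 0.91 for Lpl. Its overlap therefore does not measure the share of fat cells. None of 8 stellate cell markers and none of 12 pancreatic markers passed the test. The part of these cell types in the rises of Pnpla2 and Lipg was not tested.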

How the data were processed

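Values were deposited on the log2 scale for 35556 features after RMA normalization by the authors, and RMA and Partek are the tools in the submitters' processing notes, without versions. The methods name a human array, whereas the features carry numbers from a mouse Gene ST design. No build is named for the array, and promoter coordinates are those of the RefSeq table. RMA equalizes the arrays, whose medians lay between 5.06 and 5.18, so that a change shared by most genes would be removed. Arrays correlated at 0.978 to 0.993, and their number limits the precision. Depth does not apply.

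Features with 1 symbol (21789, of which 21698 matched the GRCm38.p6 gene table by number) were reduced to the feature with the highest mean per gene, which gave 19938 genes. Samples were grouped by the condition in their titles, and all 10 columns were used. The 2 groups were fitted with limma (version 3.58.1, R 4.3.3) and no covariate, and p-values were adjusted by Benjamini-Hochberg over all genes. Exact permutation tests used all 252 splits of 5 and 5 arrays. The fit was tested on simulated data. The alternatives are named in the closing section. The genes and lists were chosen with earlier results of these data known. From each related list, up to 3 called genes with the largest rise and up to 3 with the largest fall are named, and for each lipase gene the 2 genes of most similar profile. P-values measure the spread between these mice, which the labels call biological replicates.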

Additional observations from a re-analysis of the deposited data

Results flagged for a closer look

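A lone array was sought for each lipase gene, each pair, the called genes named by the rule, Hilpda and Phf2, in GFP and in Phf2 mice. Genes of similar profile that did not pass the test were not screened. Of 80 groups of 5 arrays examined, 2 had an array whose gap to its nearest neighbour took up most of the range, where chance alone gives about 1 in 20. Egr1 read 6.58 in GFP replicate 2, above the other GFP arrays. Pnpla2 minus G0s2 was -0.54 in Phf2 replicate 4, above the other Phf2 arrays, and no lipase gene by itself had such an array.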

How the results depend on the processing

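Pnpla2 and Lipg were the 2 genes past the adjusted threshold in all 20 alternatives (array weights, a robust prior with a trend, the methods' t-test, no dim features, a further quantile normalization, median centring, all features, the mean of a gene's features, a replicate block, a pancreatic covariate and each array left out). Their adjusted p ran from 0.00197 to 0.0228 and from 0.000658 to 0.0107, and no other lipase gene passed in any of them. With the replicate number as a block, the adjusted p of Pnpla2 was 0.0200 and that of Lipg 0.0107, and 1514 rather than 1929 genes passed. The labels do not say whether equal numbers mark pairs. The deviations of arrays with the same number correlated at -0.291 to -0.042, which gives no sign of pairs, but so few values cannot decide it. Values near 0 changed sign, G0s2 to -0.0066 with array weights and Lipe to -0.0112 after quantile normalization and -0.0013 under median centring. When single arrays were left out, G0s2 ran from -0.0368 to 0.16, Lipe from -0.0399 to 0.0922 and Pnpla2 minus G0s2 from 0.35 to 0.54. The count of lipase genes past 1.5-fold was 0 after quantile normalization and 0 to 1 without single arrays, as Lipg lies at that limit. The lysosome list had 4 called genes over all features and 4 to 7 without single arrays. Without GFP replicate 1 or Phf2 replicate 5, Mgll also had no overlap. Median centring gave 829 higher and 959 lower genes, against 1083 and 846. Lipn and Bex4 were not tested without dim features. The causes were not tested.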
